A study of Homo sapiens with 6 samples.

Results

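The genes described here are 10 genes of Src-type tyrosine kinase signalling in LoVo cells: the kinases ZAP70 and SYK, the C-terminal Src kinase CSK, its membrane adaptor PAG1, and the Src-family and related kinases SRC, YES1, FYN, LYN, LCK and FRK. They were taken by gene name from a count table of 58735 genes, and all 10 were found and passed the filter on low counts (a minimum of 10 counts in 3 or more libraries), as did 15801 genes in all. The set was chosen by measured values, since the high values of ZAP70 and CSK after SRSF11 knockdown led to it, so differences between the conditions in these 10 genes are given as a description, without p-values. LoVo, an established human colorectal cancer line, was transfected with a control siRNA (labelled si-nc, here si-NC, 3 libraries) or with one directed at the splicing factor SRSF11, of the SR protein group (si-SRSF11, 3 libraries). Both conditions share the cell line and the transfection, the labels give no time after transfection, the siRNA sequence used for sequencing is not named, and a single line was sequenced. Polyadenylated RNA was read as 150 bp pairs, and the libraries held 14369525 to 16685719 counts. SRSF11 itself had 1271 to 1363 counts in si-NC and 789 to 807 in si-SRSF11. A read plot of the study brackets the library names with the opposite conditions, so the deposited labels were followed, and all directions below rest on them. Under those labels the targeted gene SRSF11 was the lower in si-SRSF11, with a log2 fold change of -0.81 ± 0.054 (SE).

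Src-family kinases are membrane-bound tyrosine kinases that relay signals from adhesion sites and surface receptors. CSK phosphorylates a tyrosine in their C-terminal tail, which folds the kinase into an inactive form, and PAG1 (also called Cbp) is a transmembrane adaptor that brings CSK to the membrane. ZAP70 and SYK form a separate family, which binds phosphorylated ITAMs (immunoreceptor tyrosine-based activation motifs) of antigen and Fc receptors after LCK, FYN or LYN has phosphorylated them. In the intestinal epithelium SRC and YES1 are the best known members, whereas ZAP70 and LCK are best known from T cells.

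The coding sequence shows what separates CSK from its substrates. The last 16 codons and the stop codon are printed for CSK and for 5 kinases, from GENCODE 29 transcripts, 5′ to 3′, with the last tyrosine codon of each tail in capitals.
SRC: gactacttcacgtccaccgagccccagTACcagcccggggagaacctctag
YES1: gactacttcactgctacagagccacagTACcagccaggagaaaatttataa
FYN: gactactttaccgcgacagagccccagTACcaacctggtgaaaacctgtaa
LCK: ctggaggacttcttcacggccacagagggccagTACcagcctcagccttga
FRK: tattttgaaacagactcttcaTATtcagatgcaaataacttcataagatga
CSK: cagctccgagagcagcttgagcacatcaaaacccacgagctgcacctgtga
Counted from the start codon, the capitals mark codon 530 in SRC, 537 in YES1 and 531 in FYN, each 6 residues before the end of the protein. They mark codon 505 in LCK, 4 residues before the end, and codon 497 in FRK, 8 residues before the end. The tail of CSK (codons 435 to 450) holds no tyrosine codon. ZAP70 and SYK carry instead a pair of neighbouring tyrosines in the activation loop of the kinase domain, printed here in the same way.
ZAP70: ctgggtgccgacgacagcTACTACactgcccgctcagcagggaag
SYK: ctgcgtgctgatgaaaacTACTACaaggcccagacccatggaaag
The capitals mark codons 492 and 493 of ZAP70 and codons 525 and 526 of SYK. In a global alignment of the translated coding sequences, ZAP70 and SYK were identical at 56.9% of aligned residues, SRC and YES1 at 76.4%, YES1 and FYN at 76.1%, and LYN and LCK at 66.9%. FRK was the most distant from SRC among the 6 Src-type kinases, at 52.2%, and CSK and SRC were identical at 42.9%.

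Sequences upstream of a RefSeq start are shown for the genes with the 3 largest fold changes, and that of SYK differs from the others in base composition. Each is the 250 bases before the RefSeq start (GRCh38.p14) nearest to the start of the gene in the count table, and capitals mark matches, on either strand, to the GC box GGGCGG, to the element CCAAT, to the ETS core CCGGAA, to the TATA box motif TATAAA and to the E-box CACGTG, none of which contains another.
ZAP70 (chr2:97713326-97713575, + strand): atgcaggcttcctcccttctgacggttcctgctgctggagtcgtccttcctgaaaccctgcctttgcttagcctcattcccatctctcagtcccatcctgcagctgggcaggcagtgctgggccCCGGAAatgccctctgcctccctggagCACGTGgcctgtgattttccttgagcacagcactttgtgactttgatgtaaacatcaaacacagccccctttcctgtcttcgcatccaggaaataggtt
SYK (chr9:90801569-90801818, + strand): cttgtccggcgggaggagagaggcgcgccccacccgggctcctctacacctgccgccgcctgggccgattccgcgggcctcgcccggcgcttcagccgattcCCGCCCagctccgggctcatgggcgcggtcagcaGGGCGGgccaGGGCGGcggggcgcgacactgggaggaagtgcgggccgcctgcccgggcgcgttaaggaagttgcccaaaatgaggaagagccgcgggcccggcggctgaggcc
CSK (chr15:74788294-74788543, + strand): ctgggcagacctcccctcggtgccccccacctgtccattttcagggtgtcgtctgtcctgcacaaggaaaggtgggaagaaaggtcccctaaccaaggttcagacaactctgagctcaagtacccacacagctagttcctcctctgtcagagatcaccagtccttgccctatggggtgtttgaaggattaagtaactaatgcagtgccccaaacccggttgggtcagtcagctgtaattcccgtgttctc
The ZAP70 window had 55.2% G and C and 5 CpG dinucleotides, with 1 match to CCGGAA and 1 to CACGTG. The SYK window had 75.6% G and C and 32 CpG, with 3 matches to GGGCGG. The CSK window had 54.0% G and C, 4 CpG and no match, and its start lies 6487 bases downstream of the start of the gene in the count table, so it is 1 of the possible starts. Over all 35116 RefSeq windows of this length the median was 58.0% G and C and 11 CpG. GGGCGG was present in 42.6% of them, CCAAT in 32%, CCGGAA in 14.5%, TATAAA in 10.7% and CACGTG in 6.34%. Entries of the RefSeq table were matched for 7 of the 10 genes.

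ZAP70 and SYK, the ITAM-binding kinases, were both higher in si-SRSF11. ZAP70 (ENSG00000115085, GRCh38 chromosome 2, 97713560 to 97739862, plus strand) was counted 22, 34 and 45 times in the 3 si-NC libraries and 111, 97 and 114 in the 3 si-SRSF11 libraries. As CPM (counts scaled to the library total, with TMM factors) these were 1.52, 2.24 and 2.89 against 7.10, 5.97 and 6.99. The lowest si-SRSF11 library was above the highest si-NC library, and relative to their mean the si-NC libraries differed among themselves more than in any other of the 10 genes. The fitted difference was 1.58 ± 0.21 on the log2 scale (SE of the edgeR fit, 3 libraries against 3), a 3.00-fold higher level. Of the 15801 tested genes, 17 had a larger log2 fold change. Leaving out 1 library at a time moved the log2 fold change of ZAP70 between 1.38 and 1.82.

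SYK (ENSG00000165025, chromosome 9, 90801787 to 90898549, plus strand) was counted 123, 128 and 116 times in si-NC and 186, 184 and 193 in si-SRSF11. Its CPM were 8.48, 8.42 and 7.45 against 11.9, 11.3 and 11.8, with no overlap between the conditions. The log2 fold change was 0.53 ± 0.12 (SE), or 1.44-fold. ZAP70 made up 15.4%, 21.3% and 28.3% of the summed ZAP70 and SYK level per kilobase of exon in the si-NC libraries and 37.8%, 35.0% and 37.6% in the si-SRSF11 libraries. SYK thus remained the more abundant transcript of the pair in all 6 libraries.

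CSK, the inhibitor of the Src family, was higher after knockdown, while the values of its adaptor PAG1 overlapped between the conditions. CSK (ENSG00000103653, chromosome 15, 74782057 to 74803198, plus strand) was counted 986, 998 and 1007 times in si-NC and 1472, 1476 and 1566 in si-SRSF11, or 68.0, 65.7 and 64.6 CPM against 94.1, 90.8 and 96.0 CPM. The libraries of each condition lay close together and far from those of the other. The log2 fold change was 0.50 ± 0.052 (SE), or 1.42-fold, and 4.42% of the tested genes had a larger one. PAG1 (ENSG00000076641) had 52.1, 53.3 and 49.8 CPM in si-NC and 55.9, 52.8 and 48.4 CPM in si-SRSF11, and the conditions overlapped. Its log2 fold change was 0.02, with a 95% interval of -0.11 to 0.14.

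Among the Src-family kinases the differences were small and went both ways. SRC (ENSG00000197122, chromosome 20, 37344685 to 37406050, plus strand), the best known member, had 122, 113 and 116 CPM in si-NC and 120.5, 129 and 123 CPM in si-SRSF11. YES1 (ENSG00000176105, chromosome 18, 721588 to 812546, minus strand), its closest relative here, had 76.7, 74.3 and 76.1 CPM against 73.3, 74.7 and 69.8 CPM. In both genes the conditions overlapped, and the 95% intervals of the log2 fold change were -0.0092 to 0.18 for SRC and -0.16 to 0.044 for YES1. FYN (ENSG00000010810, chromosome 6, 111660332 to 111873452, minus strand), a member found in many tissues and in T cells, was the only one of the 10 genes with every si-SRSF11 library below every si-NC library. It had 35.9, 38.6 and 37.0 CPM in si-NC and 30.2, 30.9 and 31.4 CPM in si-SRSF11. Its fitted log2 fold change was -0.27 ± 0.068 (SE), so that si-SRSF11 held 83.1% of the si-NC level.

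LYN (ENSG00000254087), which acts beside SYK in B cells, had 46.8, 44.0 and 44.7 CPM in si-NC and 49.6, 48.1 and 47.8 CPM in si-SRSF11. The conditions did not overlap, but the difference was 0.10 ± 0.060 (SE) on the log2 scale. LCK (ENSG00000182866, chromosome 1, 32251239 to 32286165, plus strand), the kinase that acts upstream of ZAP70 in T cells, had 37.1, 40.3 and 37.9 CPM against 37.2, 38.5 and 41.8 CPM. These overlapped, and the 95% interval of the log2 fold change was -0.11 to 0.16. FRK (ENSG00000111816, chromosome 6, 115931149 to 116060758, minus strand), a Src-related kinase of epithelial cells, had 55.4, 50.6 and 47.6 CPM in si-NC and 59.1, 57.8 and 57.8 CPM in si-SRSF11. The FRK log2 fold change was 0.19 ± 0.062 (SE), and the si-NC libraries spread more widely than the si-SRSF11 libraries.

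At an adjusted p under 0.05 in edgeR's quasi-likelihood test over all tested genes, 4 of the 10 genes were called higher (ZAP70, SYK, CSK and FRK) and 1 lower (FYN). Over all tested genes, 24.6% were called, 13.2% as higher and 11.4% as lower. Of all 3886 called genes 2081 were higher, and with scaling by library size alone 1585 of 3874 were, so the lower calls then outnumbered the higher ones. With a log2 fold change over 1 as a further condition, ZAP70 was the only gene of the 10, beside 0.544% of all tested genes called in that direction (86 genes, or 69 with scaling by library size alone). The conditions did not overlap in 5 genes that were higher (the 4 called ones and LYN) and in 1 that was lower, beside 20% and 18.9% of all tested genes. Since the genes were selected on this contrast, nothing is read from these counts. The median log2 fold change of the 10 genes was 0.09, and that of all tested genes was 0.0015. ZAP70, SYK, CSK and FYN were called under all 13 alternatives tried. These refit the same libraries on the contrast that led to the set, so staying called adds no support. FRK was called under 7 of 13, and it was not called without si-NC replicate 2 (log2 fold change 0.18), si-NC replicate 3 (0.14), si-SRSF11 replicate 1 (0.17) or si-SRSF11 replicate 2 (0.19), nor with scaling by library size alone (0.15) or by DESeq2 (0.18).

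Levels of different genes were compared as CPM per kilobase of merged exon length, and ordered by the mean of 3 libraries. In si-NC the order was SRC (18.1), YES1 (14.8), CSK (14.5), LCK (11.5), LYN (7.31), FYN (5.01), PAG1 (4.69), FRK (3.87), SYK (1.56) and ZAP70 (0.433 CPM per kilobase). YES1 and CSK overlapped in their ranges there, and the lowest FYN library (4.838) stood only just above the highest PAG1 library (4.835). In si-SRSF11 the order was CSK (20.5), SRC (19.2), YES1 (14.2), LCK (11.7), LYN (7.84), PAG1 (4.75), FRK (4.40), FYN (4.16), SYK (2.24) and ZAP70 (1.31 CPM per kilobase). CSK and SRC overlapped in their ranges, as did PAG1 and FRK. On this measure CSK moved from the range of YES1 to that of SRC, and FYN from above PAG1 to below FRK. The order depends on dividing by merged exon length. FYN had 7411 merged exon bases but 3529 windows of 100 bases in its longest transcript, and FRK had 13230 and 13131. CSK had 4570 and 2668, SRC 6468 and 4531, and YES1 5100 and 4540. The place of CSK beside YES1 and SRC in either condition therefore depends on the length used. An order by transcript length was not computed. LCK stood above LYN and FYN in all 6 libraries of this epithelial line.

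The balance of CSK to its substrates was read as a ratio within each library, which does not depend on how libraries are scaled. The summed level of SRC, YES1, FYN, LYN, LCK and FRK was 60.6 ± 0.92 CPM per kilobase in si-NC and 61.6 ± 0.836 in si-SRSF11 (SD, n = 3), and the conditions overlapped. CSK divided by that sum was 0.241, 0.239 and 0.236 in the si-NC libraries and 0.339, 0.319 and 0.341 in the si-SRSF11 libraries. The ratio did not overlap between the conditions, although the summed level of the 6 kinases did. CSK was chosen for its rise and the sum was nearly equal, so this ratio restates that rise and adds no support. PAG1 divided by CSK was 0.325 ± 0.0103 in si-NC and 0.232 ± 0.0202 in si-SRSF11 (SD, n = 3), with no overlap. With PAG1 nearly equal, this too restates the CSK difference. SRC made up 29.8 ± 0.895% of the summed level of the 6 kinases in si-NC and 31.2 ± 0.624% in si-SRSF11, and these ranges overlapped. FYN made up 8.27 ± 0.404% and 6.76 ± 0.0974%. These ratios are of transcripts counted per gene and say nothing about protein or phosphorylation.

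Counts at the loci were checked for reads of other genes. In GENCODE 29 none of the exon bases of 9 of the genes lay in exons of another gene, and 3.02% of those of YES1 did, with the antisense gene AP001020.3 sharing 1.3% of its 100-base windows. The strand setting of the counting is not given in the sources used here, so that share of YES1 cannot be told apart from its antisense partner. No overlapping gene of ZAP70, SYK, SRC or FYN was annotated, and the gene inside CSK, MIR4513, had at most 6 counts in a library. Next to ZAP70, C2orf92 (10496 bases away) had a log2 fold change of -0.19 (adjusted p = 0.54, edgeR) and TMEM131 (16.5 kb) one of -0.02 (adjusted p = 0.896, edgeR). Next to CSK, CYP1A1 (56.4 kb) had -0.23 (adjusted p = 0.248, edgeR), and ULK3 (32.9 kb), a serine/threonine kinase, fell, with -0.30 ± 0.070 (SE, adjusted p = 0.0026, edgeR). Neither the nearest tested genes of ZAP70 nor those of CSK were called higher. Over the 20 nearest tested genes on both sides of the 10 genes, 3 were called higher, 3 lower and 14 were not called, beside 24.6% called among all tested genes.

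The gene annotation holds 8 transcripts of ZAP70, 14 of CSK, 29 of FYN and 1 of FRK. Counts per gene do not separate them, so isoforms were not analysed here.

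The receptors and adaptors that ZAP70 and SYK work with were mostly at or near 0 counts. Of 27 genes of ITAM receptors and antigen-receptor signalling, 11 passed the filter on low counts, and 3 were called higher and 3 lower (54.5% of those tested, beside 24.6% of all genes), with a median log2 fold change of 0.10. CD3D, CD3G, TYROBP, LCP2 and TRAT1 had 0 counts in every library, which allows up to 3 counts, or 0.184 to 0.207 CPM, per library. CD247, the ITAM-bearing zeta chain to which ZAP70 binds in T cells, had 0 to 5 counts, and the adaptor LAT, a ZAP70 substrate, had 2 to 5. Of those measured, SKAP1, an adaptor bound by FYN, rose from 67, 75 and 67 counts to 120, 119 and 123, a log2 fold change of 0.70 ± 0.15 (SE, adjusted p = 0.0012, edgeR). VAV2, a guanine nucleotide exchange factor, rose by 0.26 (adjusted p = 0.0018, edgeR) and PLCG1, phospholipase C gamma 1, by 0.25 (adjusted p = 0.0023, edgeR). NCK2, an SH2 and SH3 adaptor, fell by 0.22 (adjusted p = 0.022, edgeR). The count of 6 called genes became 3 without si-NC replicate 3 or without si-SRSF11 replicate 2, when none was called lower, and 4 without si-NC replicate 1 or 2.

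Of 23 other non-receptor tyrosine kinases, 16 were tested, none was called higher and 5 were called lower (31.2% beside 24.6%), with a median log2 fold change of 0.02. The Src-family kinases FGR and BLK had at most 5 counts in a library. MATK, the closest relative of CSK, had 0 to 4 counts. TYK2 and JAK1, kinases of cytokine receptors, fell by 0.27 (adjusted p = 2.1e-04, edgeR) and 0.18 (adjusted p = 0.017, edgeR). TNK2, a kinase that binds active CDC42, fell by 0.16 (adjusted p = 0.018, edgeR). FES, a kinase with an F-BAR domain, fell from 33, 30 and 26 counts to 13, 14 and 20, a log2 fold change of -1.01 ± 0.31 (SE, adjusted p = 0.019, edgeR). The fifth, JAK3, fell by 0.58 (adjusted p = 0.020, edgeR) and is named after its value was seen. PTK2, the focal adhesion kinase that pairs with SRC, had a log2 fold change of 0.11 (adjusted p = 0.115, edgeR). The 5 calls became 3 without any 1 of the si-NC replicates or without si-SRSF11 replicate 1.

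Of 26 phosphatases, adaptors and ubiquitin ligases that act on these kinases, 19 were tested, and 4 were called higher and 4 lower (42.1% beside 24.6%), with a median log2 fold change of 0.04. PTPN1, a phosphatase that can remove the inhibitory tail phosphate of SRC, fell by 0.28 (adjusted p = 4.0e-04, edgeR), from 77.02 ± 0.763 to 63.3 ± 1.18 CPM (SD, n = 3). CAV1, the caveolar scaffold, fell by 0.57 (adjusted p = 1.4e-04, edgeR), and PXN, the focal adhesion adaptor paxillin, by 0.24 (adjusted p = 7.2e-04, edgeR). PTPRK, a receptor-type phosphatase, rose by 0.28 (adjusted p = 0.0014, edgeR). PTPRA, another phosphatase of the SRC tail, had a log2 fold change of 0.04 (adjusted p = 0.607, edgeR), and PTPRC (CD45), which does so in blood cells, had 0 counts in all 6 libraries. The 8 calls became 5 without si-NC replicate 1, 4 without si-NC replicate 2 and 5 with DESeq2. With scaling by library size alone 2 were called higher and 6 in all.

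Of 27 Src substrates and adhesion signalling genes, 26 were tested, and 4 were called higher and 6 lower (38.5% beside 24.6%), with a median log2 fold change of -0.03. CAV1 and PXN, which also stand in the list above, were joined among the lower genes by ASAP1, an ARF GTPase-activating protein (-0.25, adjusted p = 0.0039, edgeR), and by the adaptor SHC1 (-0.20, adjusted p = 0.0044, edgeR). These are named for the smallest adjusted p of the list. The 4 called higher came next, with log2 fold changes of 0.20 to 0.35 (adjusted p = 0.0069 to 0.0098, edgeR). Of 7 genes for the N-myristoylation and folding of these kinases, all were tested and 2 were called (28.6% beside 24.6%). METAP2, which removes the first methionine ahead of myristoylation, rose by 0.22 (adjusted p = 0.0057, edgeR), and NMT2, an N-myristoyltransferase, fell by 0.35 (adjusted p = 0.0088, edgeR). Without si-NC replicate 1 the count was 1.

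Because ZAP70, LCK and SYK are known from blood cells, markers of blood cells were read beside them. In bulk RNA, fewer cells of a type and less RNA per cell cannot be told apart. The 19 haematopoietic markers summed to 27.4 to 29.8 CPM in si-NC and 30.1 to 31.2 CPM in si-SRSF11, without overlap (exact permutation test, two-sided, p = 0.1, the smallest that 3 against 3 allows). PTPRC, CD3D, CD3G and MS4A1 had 0 counts in all libraries, and 7 to 9 of the 19 genes had 0 counts in any given library. CD8A and CORO1A made up most of the sum, at 10.9 ± 0.573 and 11.6 ± 0.921 CPM in si-NC and 10.9 ± 0.774 and 11.2 ± 0.498 CPM in si-SRSF11 (SD, n = 3). Neither mean rose, so the difference of the sums came from genes of lower level, mostly CD14, CD7 and LYZ. CD14 had means of 2.96 CPM in si-NC and 3.77 CPM in si-SRSF11 (adjusted p = 0.216, edgeR), and LYZ was not tested. Of the 7 markers tested only CD7, a T and NK cell surface protein, was called higher. It had 4, 7 and 7 counts in si-NC and 23, 16 and 15 in si-SRSF11, a log2 fold change of 1.48 ± 0.43 (SE, adjusted p = 0.014, edgeR). CD7 passed the filter on low counts only through its si-SRSF11 libraries, where it is high, so its p gives no support for a rise. CD3E had 2 counts in si-SRSF11 replicate 1 and 0 in the other libraries. The part of these markers in the ZAP70 values was not tested.

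The 7 fibroblast markers summed to 19.8 to 23.3 CPM in si-NC and 24.86 to 28.97 CPM in si-SRSF11 (exact permutation test, two-sided, p = 0.1, the smallest that 3 against 3 allows). Only 2 of the 7 were tested. PDGFRB, a growth factor receptor and itself a tyrosine kinase, rose by 0.70 (adjusted p = 2.3e-04, edgeR), from 8.89 ± 1.46 to 14.5 ± 1.12 CPM (SD, n = 3). Its mean rose by more CPM than the mean of the sum, so the separation of the sums rests on this gene alone. COL1A1 had 12.7 ± 0.326 CPM in si-NC and 11.7 ± 1.24 CPM in si-SRSF11 (SD, n = 3), a log2 fold change of -0.12 (adjusted p = 0.472, edgeR). DCN and LUM had 0 counts throughout. The labelled epithelial line was matched by its markers, since all 10 intestinal epithelial genes passed the filter and summed to 5921 to 6290.5 CPM in si-NC and 5987 to 6394 CPM in si-SRSF11 (exact permutation test, two-sided, p = 0.4). The keratins KRT8, KRT18 and KRT19 made up most of that sum, and KRT20 was low, at 6 to 20 counts in a library. Of these, CDX2 rose by 0.40 (adjusted p = 3.8e-04, edgeR) and CLDN3 fell by 0.31 (adjusted p = 0.011, edgeR). The part of the fibroblast and epithelial markers in the values of the 10 kinase genes was not tested.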

How the data were processed

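The file deposited by the authors holds unnormalized read counts of each gene in 6 libraries, and the submitters' processing notes name hg38. The aligner, the counting program and its strand setting are not given in the sources used here. The gene lengths of the 10 genes equal the merged exons of GENCODE 29. Groups follow the GEO labels. The study describes its RNA samples as independent and in pairs, and the labels name neither pairs nor separate cultures. The p-values measure the spread between these libraries.

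Genes reaching 10 counts in 3 or more libraries were scaled by TMM and tested on condition alone with glmQLFit and glmQLFTest of edgeR (version 4.0.16, R 4.3.3), with Benjamini-Hochberg adjustment over 15801 genes and a threshold of 0.05. The standard error was taken from the F statistic. DESeq2 (version 1.42.0) was an alternative. The fit was tested on simulated data. Proteins were translated and aligned (BLOSUM62) in Biopython 1.88. Promoters came from RefSeq.

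The 10 genes and the lists were chosen with earlier results of these data known. Named beside them are at most 4 genes of each pathway list with the smallest adjusted p under 0.05, the neighbours of ZAP70 and CSK, and the 3 genes most like each of those 2. PTK2, PTPRA, MATK and other genes given as not called or near 0, and the marker genes, are named for their role. Library depth sets the precision, and a count of 0 allows up to 3 counts, for counting error only. Splicing was not analysed here.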

Additional observations from a re-analysis of the deposited data

How the results depend on the processing

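The 13 alternatives changed the scaling, the filter or the tool, took protein-coding genes only, added the replicate number as a block, or left out 1 library. None reversed a called gene among the 10, and all 130 alternative log2 fold changes moved by less than the replicate spread. PAG1 and LCK, not called in any, changed sign in some. With an absolute log2 fold change over 1, 173 of all tested genes were called, 92 with DESeq2 and 96 among protein-coding genes only, and the count of phosphatase, adaptor and ligase genes fell from 8 to 5 with DESeq2. Without 1 library in turn, between 2741 and 3871 genes were called in all (3886 with all libraries), 139 to 186 with an absolute log2 fold change over 1, and 4 or 5 of the 10 genes. The same range was 3 to 5 for other non-receptor kinases, 4 to 7 for phosphatases, adaptors and ligases, 3 to 6 for ITAM and antigen-receptor genes, 8 to 9 for Src substrates and 1 to 3 for myristoylation and folding. The difference of the summed haematopoietic markers, 1.84 CPM, ranged from 1.06 without si-NC replicate 3 to 2.25, with exact permutation p of 0.1 to 0.4 over the alternatives. Same-numbered libraries deviated together with correlations of 0.0151, 0.0362 and 0.0403. These are small, but they cannot tell whether a pair shared a culture or a batch, and the labels give only a number. With the replicate block 4036 genes were called, 5 of the 10 genes, and 5, 8, 6, 10 and 3 genes of the lists in the order above. Scaling by library size alone shifted the median of all genes by -0.034. Depth limits ZAP70 most, with 22 counts in its lowest library.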

Other observations

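The protein-coding genes whose levels followed ZAP70 most closely, by Pearson r of log2 CPM over the 6 libraries, were TOMM20 (r = 0.9961), a mitochondrial import receptor, CDH2 (r = 0.9954), which encodes N-cadherin, and CHMP1A (r = 0.9939), an ESCRT-III subunit. CDH2 had 2 to 7 counts in si-NC and 18 to 21 in si-SRSF11, a log2 fold change of 1.94. Its si-NC counts are near the floor. It passed the filter on low counts only through the si-SRSF11 libraries, so this value gives no support for a rise. By Western blot the study reported N-cadherin protein changing the opposite way on knockdown. It also measured N-cadherin mRNA by qPCR, and its stability, after knockdown of HSPA12A. From these it proposes that HSPA12A transcripts with exon 2 stabilize N-cadherin mRNA. Those RNA measurements followed another knockdown, RNA and protein are unlike measures, and the difference was not tested. TOMM20 and CHMP1A had an r this high with log2 fold changes of only 0.06 and 0.19. For CSK the closest were MT-CO1 (r = 0.9993), a mitochondrially encoded subunit of cytochrome c oxidase, HSPD1 (r = 0.9986), the mitochondrial chaperonin, and the histone deacetylase HDAC2 (r = 0.9985), with log2 fold changes of 0.16, 0.47 and 0.25. The libraries fall into 2 conditions, and of 12769 genes compared 867 had an r over 0.9 with ZAP70 and 1209 with CSK. These r are a description and were not tested.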
